A study of Mus musculus with 60 samples.

Results

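The cyclin-dependent kinase CDK5 and 9 genes tied to it by name or function were followed in mouse duodenal organoids, which are cultures of small intestinal epithelium. The 10 genes are Cdk5, Cdk5r1, Cables1, Cables2, Cdk5rap1, Cdk5rap2, Cdk5rap3, Mapt, Stx1a and Vim. They were taken by symbol from a table that lists 41018 genes, of which 24905 have values in all 13 of its comparisons, and all 10 are among these.

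The study compared removal of CDK5 or of CDK2 with controls in 60 samples, 20 groups of 3. In the degron arm, organoids homozygous for CDK5-dTAG, organoids homozygous for CDK2-dTAG and WT-dTAG organoids received 250 nM dTAG-13 or DMSO, the vehicle, for 24 h or 6 h. dTAG-13 is a small molecule that brings a protein carrying the dTAG degron to an E3 ubiquitin ligase, so that the protein is degraded. In the knockout arm, organoids homozygous for a conditional CDK2 knockout (CDK2-cKO) and WT-cKO organoids received 1 µM 4-hydroxytamoxifen (4-OHT), which switches on tamoxifen-dependent Cre recombinase, or DMSO, for 48 h or 24 h. The labels do not say whether WT-cKO organoids carry Cre, how many mice or organoid lines each genotype stands for, or how old the mice were. All groups were grown in domes of Matrigel with a commercial intestinal organoid medium, and libraries were made from 50 ng RNA with a 3′ end kit.

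CDK5 is a serine/threonine kinase that stays inactive until a non-cyclin partner, p35 (Cdk5r1) or p39 (Cdk5r2), binds it. It is best known from neurons, where it acts in migration, axon growth and vesicle release through substrates such as tau, and it is also made outside the nervous system. Because dTAG-13 acts on the tagged protein, the transcript of Cdk5 does not report whether the kinase was lost, and a 3′ tag lies away from most of the coding sequence.

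The 10 genes lie on 5 chromosomes in the GENCODE annotation of GRCm38. Cdk5 spans chr5:24418241-24423530 on the minus strand, Cdk5r1 spans chr11:80477023-80481184 on the plus strand, Mapt spans chr11:104231390-104332090 on the plus strand and Vim spans chr2:13573927-13582826 on the plus strand. Genes annotated on the opposite strand overlap Mapt (3 genes), Cables1 (2) and Cdk5rap3 (1), but 0 of the 10 genes has another gene across its 3′ end, where the tags lie. Whether counting used strand is not given in the sources used here.

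RefSeq upstream sequence (GRCm38.p6) was at hand for 6 of the 10 genes. The 250 bases before the start of Stx1a are shown because Stx1a had the largest value in CDK5-dTAG organoids at 6 h, and those of Cdk5rap2 because its values there lay near 0 at both times. Capitals mark the GC box GGGCGG, searched on both strands. The window of Stx1a lies at chr5:135023232-135023481 on the plus strand and that of Cdk5rap2 at chr4:70410436-70410685 on the minus strand, both printed 5′ to 3′. Of the Cdk5rap2 window 8 bases lie in exons of the GENCODE annotation.
Stx1a: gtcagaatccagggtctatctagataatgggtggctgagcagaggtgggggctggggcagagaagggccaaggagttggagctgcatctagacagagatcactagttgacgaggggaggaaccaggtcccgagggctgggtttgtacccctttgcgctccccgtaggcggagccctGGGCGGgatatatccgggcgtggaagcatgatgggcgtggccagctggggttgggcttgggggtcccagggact
Cdk5rap2: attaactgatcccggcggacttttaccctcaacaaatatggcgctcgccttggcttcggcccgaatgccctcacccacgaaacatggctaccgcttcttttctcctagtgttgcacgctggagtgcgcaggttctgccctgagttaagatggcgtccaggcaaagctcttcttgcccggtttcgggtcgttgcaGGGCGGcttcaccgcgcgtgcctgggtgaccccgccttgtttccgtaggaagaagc
Each window held 1 GC box, a motif found in 32.7% of the 32851 RefSeq windows of the same length. The windows of Cdk5rap1, Cables2 and Cdk5rap3 held 1, 2 and 3 GC boxes. Any link of the motif to the fold changes was not tested. CpG dinucleotides numbered 9 before Stx1a and 20 before Cdk5rap2, with GC contents of 62% and 58.4% against a median of 52.4% over all windows. The RefSeq window of Vim, chr2:13574061-13574310, held 0 GC boxes and 8 CpG dinucleotides, and all 250 of its bases lie in exons of the GENCODE annotation. The AP-1 motif TGANTCA is in 6.75% of all windows and was in 0 of those of the 6 genes.

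The values are log2 fold changes of the first condition over the second with their p-values, all from the authors' deposited table, and levels per sample were not analysed here. A standard error was derived from each fold change and its p-value, and intervals are 95% intervals from it, on the reading that the authors' test is of the Wald type. Called means an FDR p-value under 0.05, and a gene whose standard error has a median no larger than 0.5 across comparisons is termed well measured (9526 genes, including 7 of the 10). The exceptions are Cdk5r1, Mapt and Stx1a, with median standard errors of 0.84, 0.58 and 0.77. The p-values reflect only how far these samples spread, which may be technical, since the labels do not say whether replicates were separate cultures. Over which groups the authors estimated that spread is not stated.

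No gene of the 10 passed the test in any of the 13 comparisons. For the CDK5-dTAG genotype, 0% of 24905 genes were called at 24 h and 0% at 6 h, so the 0 of 10 equals the background. By unadjusted p under 0.05 the background was 1.99% at 24 h and 0.952% at 6 h, and 0 of the 10 genes was under it at either time. The lowest FDR p-value of any of the 10 genes by the authors' deposited table was 0.920, for Mapt in WT-dTAG organoids between DMSO at 24 h and at 6 h, where 0.0803% of genes were called. Over all 13 comparisons 5 of the 130 values (3.85%) of the 10 genes had an unadjusted p under 0.05, against 1.73% of the values of all genes and 2.73% of those of well measured genes. None of these 5 was in CDK5-dTAG organoids. The share of genes called was 0% in both dTAG-13 comparisons of WT-dTAG and of CDK2-dTAG organoids, with 1.08% and 0.799% (WT-dTAG) and 1.07% and 0.903% (CDK2-dTAG) at an unadjusted p under 0.05 at 24 h and 6 h. For 4-OHT it was 0.0241% at 48 h and 0% at 24 h in CDK2-cKO organoids (2.21% and 1.3% by unadjusted p), and 0% at 48 h and 0.0642% at 24 h in WT-cKO organoids (1.83% and 2.98%). For the later over the earlier DMSO time it was 0.0803% in WT-dTAG, 0.0361% in CDK2-dTAG and 0% in WT-cKO organoids (3.28%, 2.72% and 1.42%). The 10 genes had 0 calls against each of these backgrounds.

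**Figure D1:**
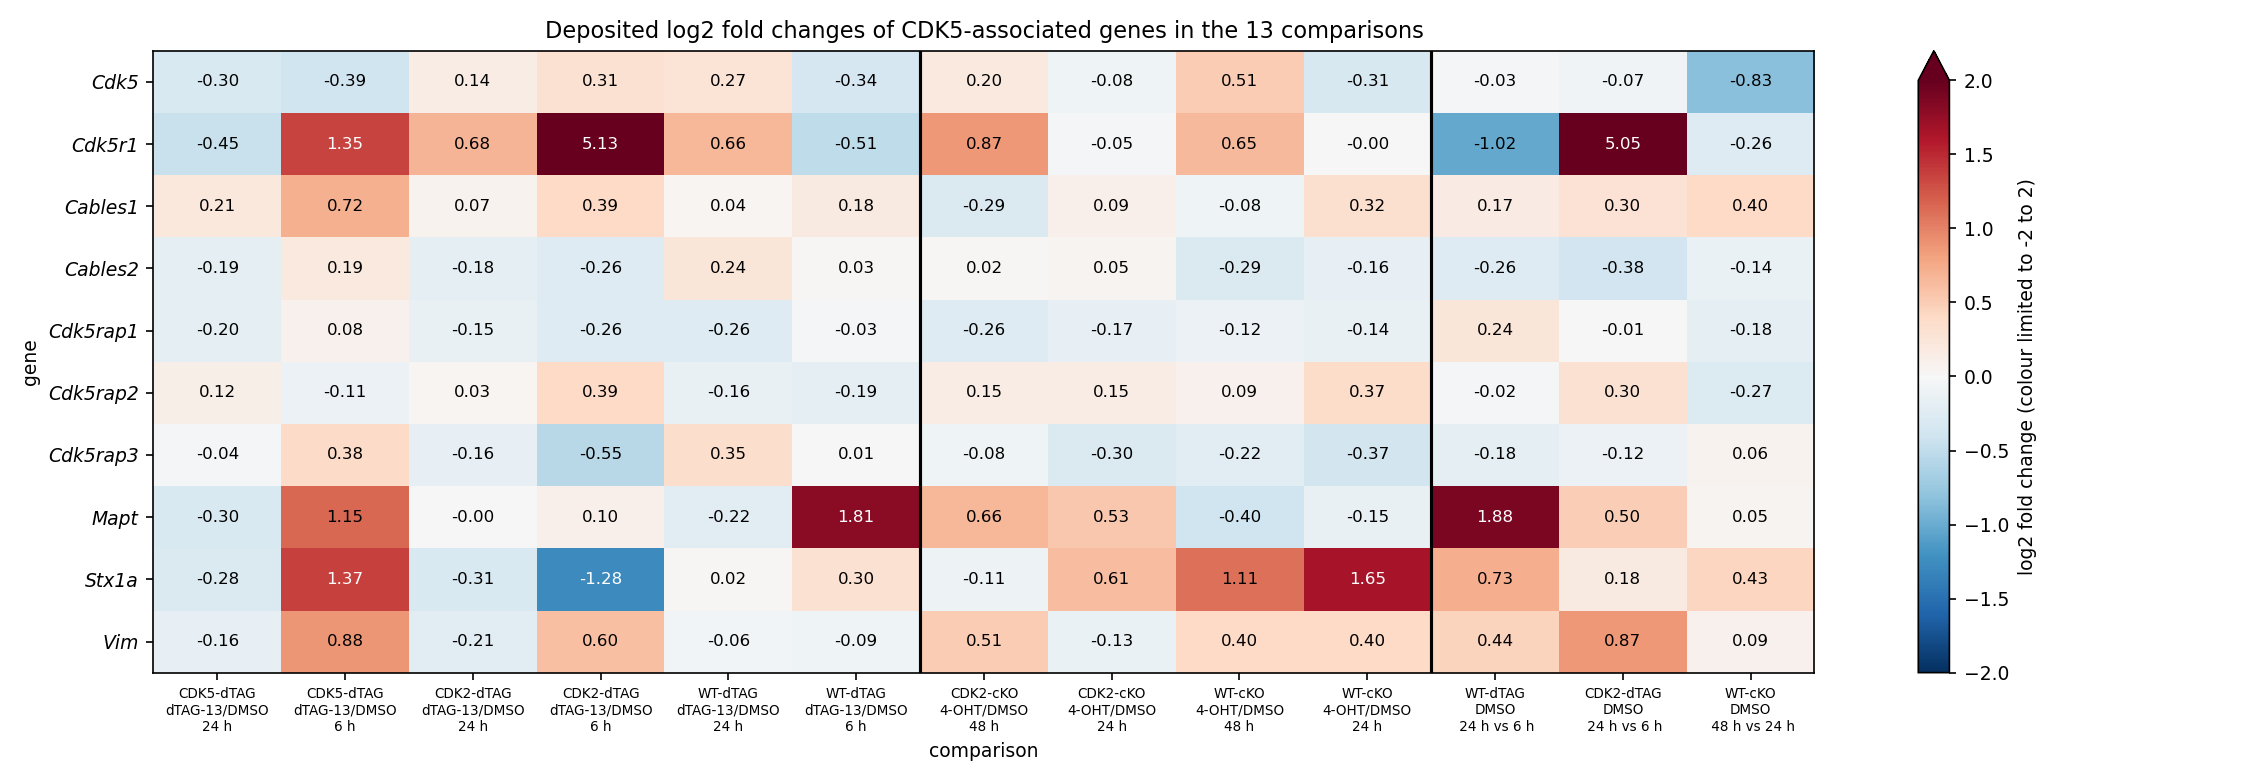
Log2 fold changes of the 10 genes (rows) in the 13 comparisons (columns) from the authors' deposited table; colour follows the printed value and is limited to -2 to 2. Vertical lines part the dTAG-13 responses, the 4-OHT responses and the DMSO comparisons between times, and the deepest colours sit on Cdk5r1 (5.13 and 5.05), Mapt and Stx1a.

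Cdk5 itself was lower with dTAG-13 in CDK5-dTAG organoids at both times without passing the test. Its log2 fold change by the authors' deposited table was -0.30 at 24 h (fold 0.814, unadjusted p 0.458) and -0.39 at 6 h (fold 0.762, p 0.335). WT-dTAG organoids, the wild type of this arm, showed -0.34 at 6 h by the authors' deposited table (95% interval -0.98 to 0.29). At 6 h the response of Cdk5 therefore differed between CDK5-dTAG and WT-dTAG organoids by -0.05 (95% interval -1.07 to 0.97, adjusted p 0.998, Benjamini-Hochberg over all genes). At 24 h the difference was -0.57 (interval -1.57 to 0.43), with -0.30 in CDK5-dTAG against 0.27 in WT-dTAG organoids by the authors' deposited table. Both intervals include 0.

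Across the 10 treatment comparisons, which share no library, Cdk5 was positive in 5 and negative in 5, with values from -0.39 to 0.51 by the authors' deposited table. Its value farthest from 0 in the 13 comparisons was -0.83, in WT-cKO organoids with DMSO at 48 h over 24 h (unadjusted p 0.0112, FDR p 0.999 by the authors' deposited table, with 1.42% of genes at an unadjusted p under 0.05). The 48 h DMSO group of this comparison is also the control for 4-OHT at 48 h in WT-cKO organoids, where Cdk5 stood at 0.51 by the authors' deposited table. In CDK2-cKO organoids Cdk5 was at 0.20 at 48 h and -0.08 at 24 h with 4-OHT, and in CDK2-dTAG organoids at 0.14 at 24 h and 0.31 at 6 h with dTAG-13, by the authors' deposited table. Neither the degron nor the knockout of CDK2 thus came with a called change of the Cdk5 transcript.

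The error of Cdk5 was larger in the CDK5-dTAG comparisons than in the rest. The derived standard error was 0.401 at 24 h and 0.406 at 6 h for CDK5-dTAG organoids, above the range of 0.315 to 0.363 in the other 11 comparisons. Relative to WT-dTAG organoids the standard error was 1.27 times as large at 24 h and 1.25 times at 6 h. Among the 9526 well measured genes the median of this ratio was 1.00, with 5th and 95th percentiles of 0.952 and 1.05 at 24 h and of 0.962 and 1.04 at 6 h. A ratio as large as that of Cdk5 occurred in 4 well measured genes at 24 h and in 3 at 6 h, Cdk5 counted. None of the other 9 genes had standard errors that lay above all its other comparisons at both times. By the ratio, Cdk5rap1 also exceeded the 95th percentile at both times (1.08 at 24 h and 1.09 at 6 h). At 6 h alone Vim (1.08), Cdk5r1 (1.08) and Stx1a (1.07) exceeded it too. This reading of standard errors was not among the planned comparisons. The comparison of Cdk5 between genotypes under DMSO was not analysed here.

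**Figure D2:**
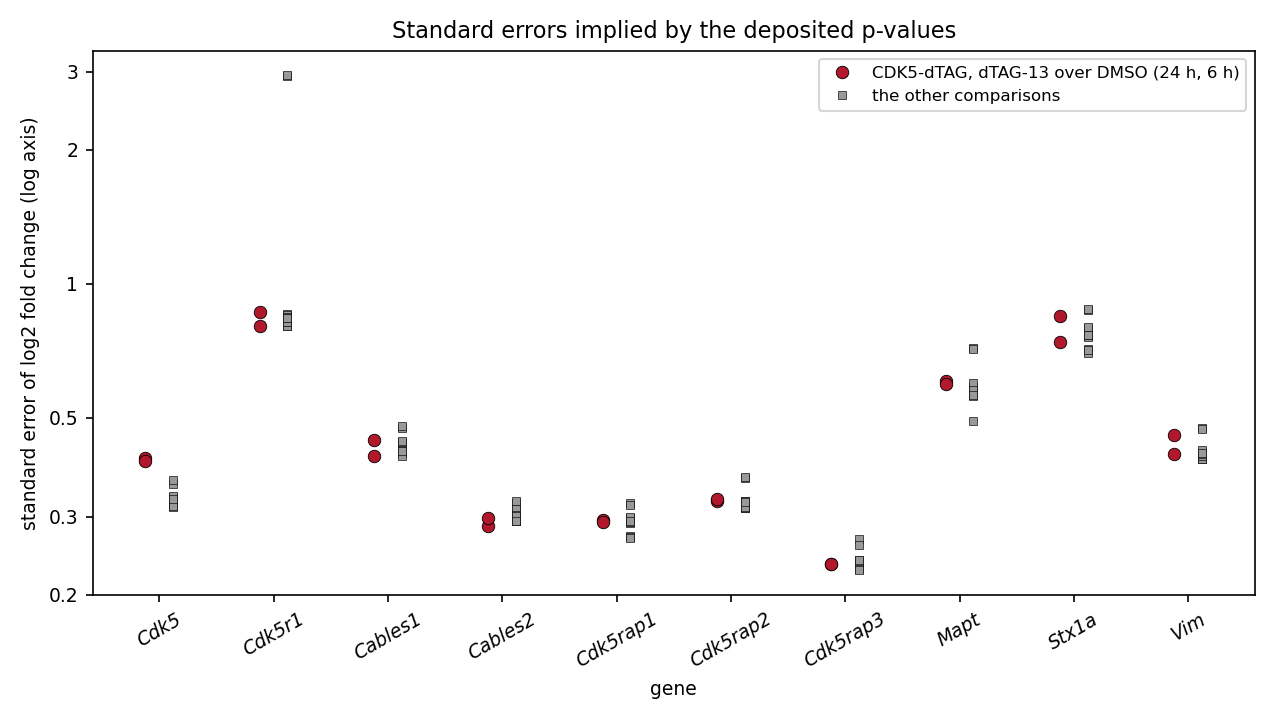
Derived standard error of the log2 fold change (vertical log axis) of each of the 10 genes, as circles for CDK5-dTAG organoids (24 h and 6 h) and squares for the other 11 comparisons. For Cdk5 both circles (0.401 and 0.406) lie above every square, and the isolated squares of Cdk5r1 near 2.94 are the comparisons that use the CDK2-dTAG DMSO group at 6 h.

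Cdk5r1 encodes p35, the activator that CDK5 needs. In CDK5-dTAG organoids it was at -0.45 at 24 h (95% interval -2.02 to 1.12) and 1.35 at 6 h (interval -0.34 to 3.05) by the authors' deposited table. The response in CDK5-dTAG minus that in WT-dTAG organoids was 1.86 at 6 h (interval -0.46 to 4.17, adjusted p 0.998), and within CDK5-dTAG the response at 24 h minus that at 6 h was -1.80 (interval -4.11 to 0.51). The largest values of any of the 10 genes also belonged to Cdk5r1, 5.13 for dTAG-13 over DMSO at 6 h and 5.05 for DMSO at 24 h over 6 h in CDK2-dTAG organoids by the authors' deposited table. Both rest on the same CDK2-dTAG DMSO group at 6 h, both have a standard error of 2.94 and neither passed the test (unadjusted p 0.0807 and 0.0855). The p35 values are thus the least certain of the 10. To be called as the only such gene in CDK5-dTAG organoids at 6 h, Cdk5r1 would have needed a log2 change of 4.11 (17.3-fold), Cdk5 one of 1.93 (3.81-fold) and Cdk5rap3, the best measured of the 10, one of 1.11 (2.17-fold).

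Cables1 encodes an adaptor that links CDK5 to the tyrosine kinase Abl, and Cables2 its close relative. Cables1 was at 0.21 at 24 h and 0.72 at 6 h (interval -0.15 to 1.59) for CDK5-dTAG organoids, against 0.04 at 24 h and 0.18 at 6 h in WT-dTAG organoids, by the authors' deposited table. Cables2 stayed within -0.29 and 0.24 in the 10 treatment comparisons of the authors' deposited table. The Cables1 response differed between CDK5-dTAG and WT-dTAG organoids by 0.54 at 6 h (interval -0.69 to 1.77) and that of Cables2 by 0.17 (interval -0.63 to 0.97), and neither difference was called.

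The 3 CDK5RAP proteins were named for binding the p35 activator and have other roles: CDK5RAP1 modifies mitochondrial tRNA, CDK5RAP2 anchors microtubule nucleation at the centrosome, and CDK5RAP3 belongs to the ligase complex that attaches the ubiquitin-like protein UFM1. Cdk5rap1 was the steadiest, from -0.26 to 0.08 over the 10 treatment comparisons by the authors' deposited table, negative in 9 of them. Cdk5rap2 ranged from -0.19 to 0.39 by the authors' deposited table, with 0.12 at 24 h and -0.11 at 6 h for CDK5-dTAG organoids. Cdk5rap3 had opposite signs in the 2 degron genotypes at 6 h: 0.38 in CDK5-dTAG (interval -0.08 to 0.84) and -0.55 in CDK2-dTAG organoids (interval -1.08 to -0.03, unadjusted p 0.0387) by the authors' deposited table. The difference between these responses was 0.93 (interval 0.23 to 1.63, unadjusted p 0.0088), which did not survive adjustment over all genes (adjusted p 1.00). In that difference 0% of genes were called and 1.12% had an unadjusted p under 0.05, and among the 10 genes Cdk5rap3 and Stx1a did. At 24 h the Cdk5rap3 response was -0.04 in CDK5-dTAG and -0.16 in CDK2-dTAG organoids by the authors' deposited table, a difference of 0.12 (interval -0.54 to 0.78).

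Mapt, Stx1a and Vim, together with Cdk5r1, took the highest values of the 10 genes in CDK5-dTAG organoids at 6 h. Mapt encodes tau, a microtubule-binding protein of axons and a CDK5 substrate, Stx1a encodes a SNARE protein of regulated exocytosis that enteroendocrine cells use too, and Vim encodes vimentin, an intermediate filament of mesenchymal cells and a CDK5 substrate. With Cdk5r1 they spanned 0.88 to 1.37 at 6 h, above the other 6 genes (-0.39 to 0.72), and -0.45 to -0.16 at 24 h, within or just below the other 6 (-0.30 to 0.21), by the authors' deposited table. This split into 4 and 6 was seen in the values and carries no test. Over all 10 genes the median at 24 h was -0.20, with 2 of 10 positive, and at 6 h it was 0.55, with 8 of 10 positive. Over all genes 37.8% were positive at 24 h and 35.7% at 6 h, and over well measured genes 46.8% and 48.9%, with medians of -0.016 at 24 h and -0.005 at 6 h. The shares over all genes are lowered by genes that sit at 1 identical negative value, 23.8% at 24 h and 25.1% at 6 h. Restricted to the 7 well measured genes, the median of the set was -0.16 at 24 h and 0.19 at 6 h.

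**Figure D3:**
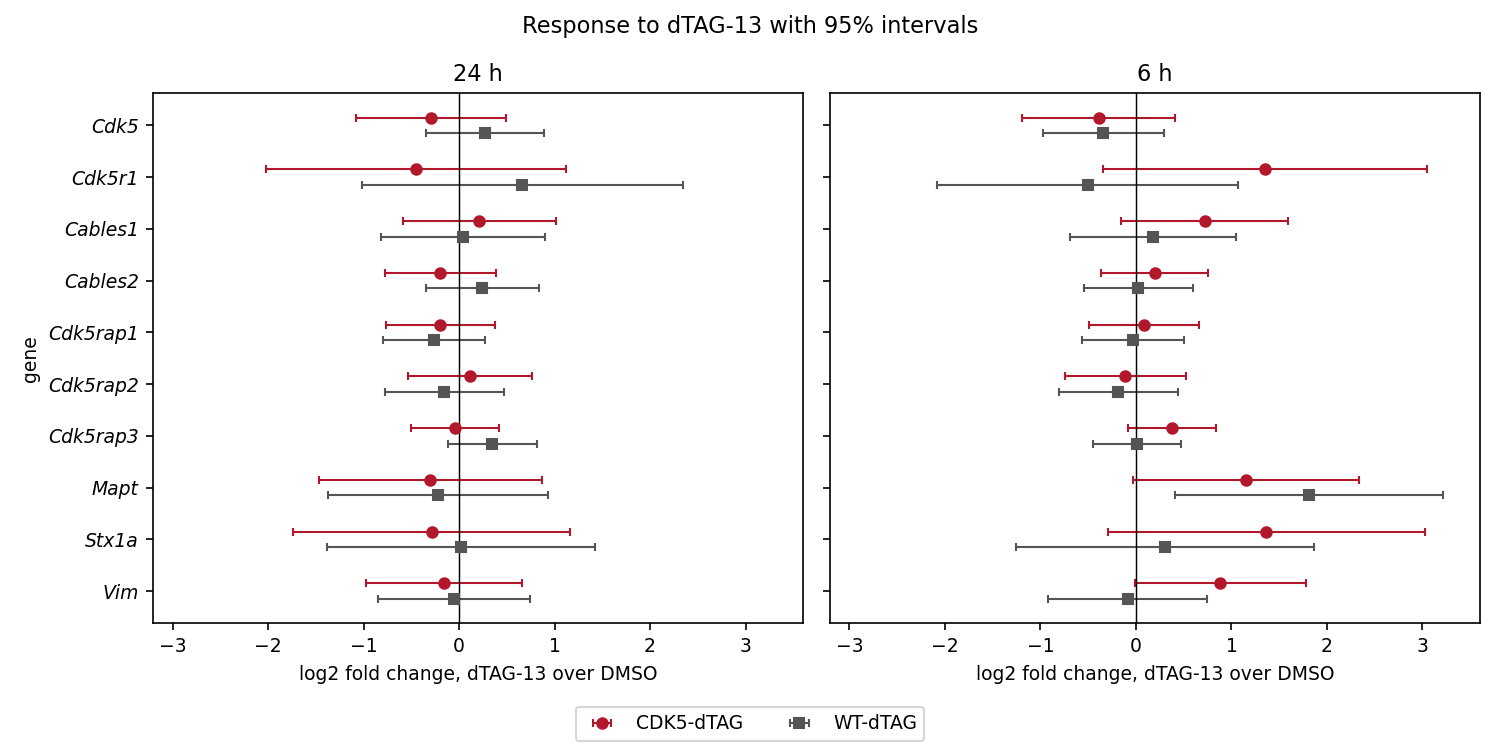
Log2 fold change of dTAG-13 over DMSO (horizontal axis) for each of the 10 genes, with 95% intervals, in CDK5-dTAG (circles) and WT-dTAG organoids (squares), at 24 h (left) and 6 h (right). Every CDK5-dTAG interval includes 0, and the only interval clear of 0 is that of Mapt in WT-dTAG organoids at 6 h (0.41 to 3.22).

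Mapt was at 1.15 in CDK5-dTAG organoids at 6 h (interval -0.04 to 2.34), but at 1.81 in WT-dTAG organoids (interval 0.41 to 3.22, unadjusted p 0.0114, FDR p 0.997) by the authors' deposited table, where 0.799% of genes had an unadjusted p under 0.05. The CDK5-dTAG response minus the WT-dTAG response was -0.66 (interval -2.50 to 1.18) and was not called. The same WT-dTAG DMSO group at 6 h enters the comparison of DMSO at 24 h over 6 h, where Mapt was at 1.88 (unadjusted p 0.00833) by the authors' deposited table, so both values have that group as their denominator. At 24 h Mapt was at -0.30 in CDK5-dTAG and -0.22 in WT-dTAG organoids by the authors' deposited table. The 6 h value of tau was thus larger in wild-type than in CDK5-dTAG organoids, within the error.

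Stx1a was at -0.28 at 24 h and 1.37 at 6 h (interval -0.30 to 3.03) for CDK5-dTAG organoids by the authors' deposited table. At 6 h it was at 1.37 in CDK5-dTAG organoids, -1.28 in CDK2-dTAG and 0.30 in WT-dTAG organoids by the authors' deposited table. The response in CDK5-dTAG exceeded that in CDK2-dTAG organoids by 2.64 (interval 0.25 to 5.03, unadjusted p 0.0301, adjusted p 1.00) and that in WT-dTAG organoids by 1.06 (interval -1.21 to 3.34). Its largest value lay in the other arm: with 4-OHT at 24 h it was at 0.61 in CDK2-cKO organoids and 1.65 in WT-cKO organoids (unadjusted p 0.0394, FDR p 0.998, background 2.98%) by the authors' deposited table. No condition therefore gave a called Stx1a value, and the high values came from both tagged and wild-type organoids.

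Vim, the only well measured gene of these 4, was at -0.16 at 24 h and 0.88 at 6 h (interval -0.01 to 1.78, unadjusted p 0.0536) for CDK5-dTAG organoids by the authors' deposited table. WT-dTAG organoids were at -0.06 at 24 h and -0.09 at 6 h, and CDK2-dTAG organoids at -0.21 and 0.60, by the authors' deposited table. For Vim the response in CDK5-dTAG minus that in WT-dTAG organoids was 0.97 at 6 h (interval -0.25 to 2.19, adjusted p 0.998), and minus that in CDK2-dTAG organoids it was 0.28 (interval -1.01 to 1.57). Within CDK5-dTAG organoids the response at 24 h minus that at 6 h was -1.04 (interval -2.25 to 0.17, unadjusted p 0.0928). In bulk RNA of this kind, fewer cells of a type and less RNA per cell cannot be told apart.

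**Figure D4:**
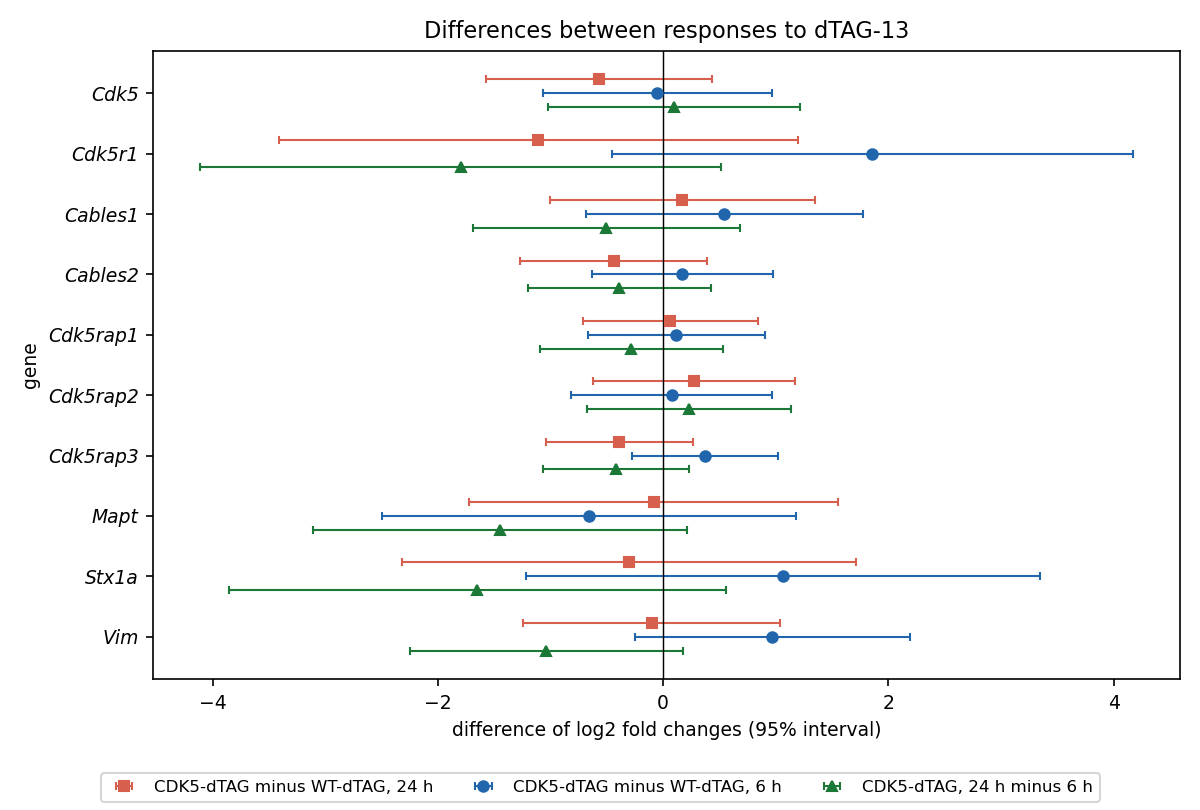
Differences between log2 fold changes (horizontal axis) for each of the 10 genes with 95% intervals: CDK5-dTAG minus WT-dTAG at 24 h (squares), the same at 6 h (circles), and CDK5-dTAG at 24 h minus 6 h (triangles). Every interval shown includes 0, the widest for Cdk5r1 and the narrowest for Cdk5rap3.

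Across the 5 differences between responses, 0 of 10 genes was called. The background was 0% for CDK5-dTAG minus WT-dTAG at 24 h and at 6 h, for CDK5-dTAG minus CDK2-dTAG at 6 h and for CDK5-dTAG at 24 h minus 6 h. By unadjusted p under 0.05 these backgrounds were 2.05%, 1.06%, 1.12% and 1.52% in the same order, and 2 of the 10 genes passed in the CDK2-dTAG difference at 6 h and 0 in the others. In CDK5-dTAG minus CDK2-dTAG at 24 h 0.00402% of genes were called (1.68% by unadjusted p) and again 0 of the 10.

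Markers were read for the cell types that carry neuronal-type genes in the gut. The 16 epithelial markers were all well measured, with Epcam at 0.11 at 24 h and 0.03 at 6 h for CDK5-dTAG organoids by the authors' deposited table. Of 22 enteroendocrine markers 14 were well measured. The median over all 22 was 0.04 at 24 h and 0.05 at 6 h for CDK5-dTAG organoids, with 0 called. Over the 14 well measured markers it was 0.04 and 0.08. Of 13 neuron and glia markers with values 1 was well measured (Ret, at 0.13 at 24 h and 0.31 at 6 h by the authors' deposited table), and of 14 fibroblast and muscle markers 0 was. Of the 13 neuron and glia markers 9 were negative at 24 h and 10 at 6 h, with medians of -0.01 and -0.04, and 3 and 5 of these sit at the value that many genes share in that comparison. Of 11 immune, 7 endothelial and 8 tuft cell markers with values, 1, 2 and 0 were well measured. In those CDK5-dTAG comparisons 0 markers of any of the 7 lists were called. The part of these cell types in the values of Mapt, Stx1a and Vim was not tested.

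The genes around the 10 were read in 9 lists holding 141 genes, of which 140 have values. None was called in CDK5-dTAG organoids, and list medians lay between -0.10 and 0.01 at 24 h and between -0.04 and 0.15 at 6 h. By unadjusted p under 0.05, 5 of 140 (3.57%) passed at 24 h and 3 of 140 (2.14%) at 6 h, against the backgrounds of 1.99% and 0.952% over all genes. Most list genes are well measured, and over all 13 comparisons such p-values were more frequent among well measured genes (2.73%) than among all genes (1.73%). The share among well measured genes was not computed for CDK5-dTAG organoids alone, so the excess is not read as a trait of the lists.

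Of 11 CDK5 regulators, 5 were positive at 24 h and 8 at 6 h, with medians of -0.04 and 0.15. The calpain small subunit Capns1, part of the protease that cuts p35, was at -0.07 at 24 h and 0.04 at 6 h for CDK5-dTAG organoids by the authors' deposited table, with a standard error of 0.14. Fyn, a tyrosine kinase that phosphorylates CDK5, had the smallest p at 24 h (-0.77, unadjusted p 0.0892), and Lmtk2, a kinase that binds p35, the smallest at 6 h (0.95, p 0.137), by the authors' deposited table. A list of 6 genes held kinases like CDK5, the PCTAIRE kinases among them, and the activator Ccny. Within it Cdk16 was at -0.15 at 24 h and 0.06 at 6 h and Cdk17 at -0.40 and -1.0 by the authors' deposited table. None of either list was called, and Cdk16 had a standard error of 0.18.

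Of 32 other CDK5 substrates, 9 were positive at 24 h and 18 at 6 h, with medians of -0.06 and 0.03. The best measured ones, the inhibitor p27 (Cdkn1b), the kinase Pak1 and DARPP-32 (Ppp1r1b), lay between -0.09 and 0.09 at both times in CDK5-dTAG organoids by the authors' deposited table. Dnm1, the vesicle-scission GTPase dynamin, was at -0.70 at 24 h and 0.54 at 6 h, and Ndel1, a dynein regulator, at 0.08 and 0.31 by the authors' deposited table.

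Of the 19 centrosome partners of CDK5RAP2, 3 had an unadjusted p under 0.05 at 6 h (Cep192, Nedd1 and Tubgcp5), against 0.952% of all genes, and 0 at 24 h. They were the only genes of the 9 lists to pass at 6 h. In the same list 1 gene passed at 6 h in WT-dTAG organoids and 1 in CDK2-dTAG organoids. Cep192, a scaffold of centrosome maturation, was at 0.20 at 24 h and 0.96 at 6 h (unadjusted p 0.00503) for CDK5-dTAG organoids by the authors' deposited table, against 0.40 and -0.09 in WT-dTAG organoids. Tubgcp5, a subunit of the gamma-tubulin ring complex, was at 0.15 at 24 h and 0.87 at 6 h, and Nedd1, which brings that complex to the centrosome, at -0.15 and -0.53, by the authors' deposited table. The 3 thus had both signs at 6 h. The list median was -0.10 at 24 h and 0.01 at 6 h, and gamma-tubulin (Tubg1) was at -0.20 and 0.03 by the authors' deposited table. Of the 12 tRNA modification genes around CDK5RAP1, 2 had an unadjusted p under 0.05 at 24 h, against 1.99% of all genes, and 0 at 6 h. They were Trmt10c (0.65, unadjusted p 0.00419), part of the mitochondrial RNase P complex, and Nsun2 (-0.30), a tRNA methyltransferase, by the authors' deposited table. The 7 UFMylation genes with values, all well measured, had medians of -0.02 at 24 h and 0.09 at 6 h. Within that list Ddrgk1, a partner of CDK5RAP3 in the ligase, was at -0.21 at 24 h and -0.12 at 6 h by the authors' deposited table.

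Of 24 SNARE and exocytosis genes, 12 were positive at 24 h and 17 at 6 h, with medians of 0.01 and 0.08, or -0.13 and 0.01 over the 15 well measured ones. Of the 24, 3 had an unadjusted p under 0.05 at 24 h and 0 at 6 h. These were the apical syntaxin Stx3, at -0.30 at 24 h (unadjusted p 0.0473) and 0.06 at 6 h, the basolateral syntaxin Stx4a, at 0.57 (p 0.0165) and -0.03, and the vesicle GTPase Rab3a, at -0.74 and 0.25, by the authors' deposited table. None was called, and the 3 had both signs at 24 h. Microtubule-associated proteins and tau kinases had medians of 0.01 at 24 h and -0.0003 at 6 h over 19 genes, with the tau kinase Mark3 at 0.02 and 0.22 by the authors' deposited table. Intermediate filament genes had medians of -0.01 at 24 h and 0.00 at 6 h over 17 genes. The epithelial keratin Krt8 was at 0.00 at 24 h and 0.02 at 6 h by the authors' deposited table, with a median standard error of 0.15, beside the vimentin values of -0.16 and 0.88.

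**Figure D5:**
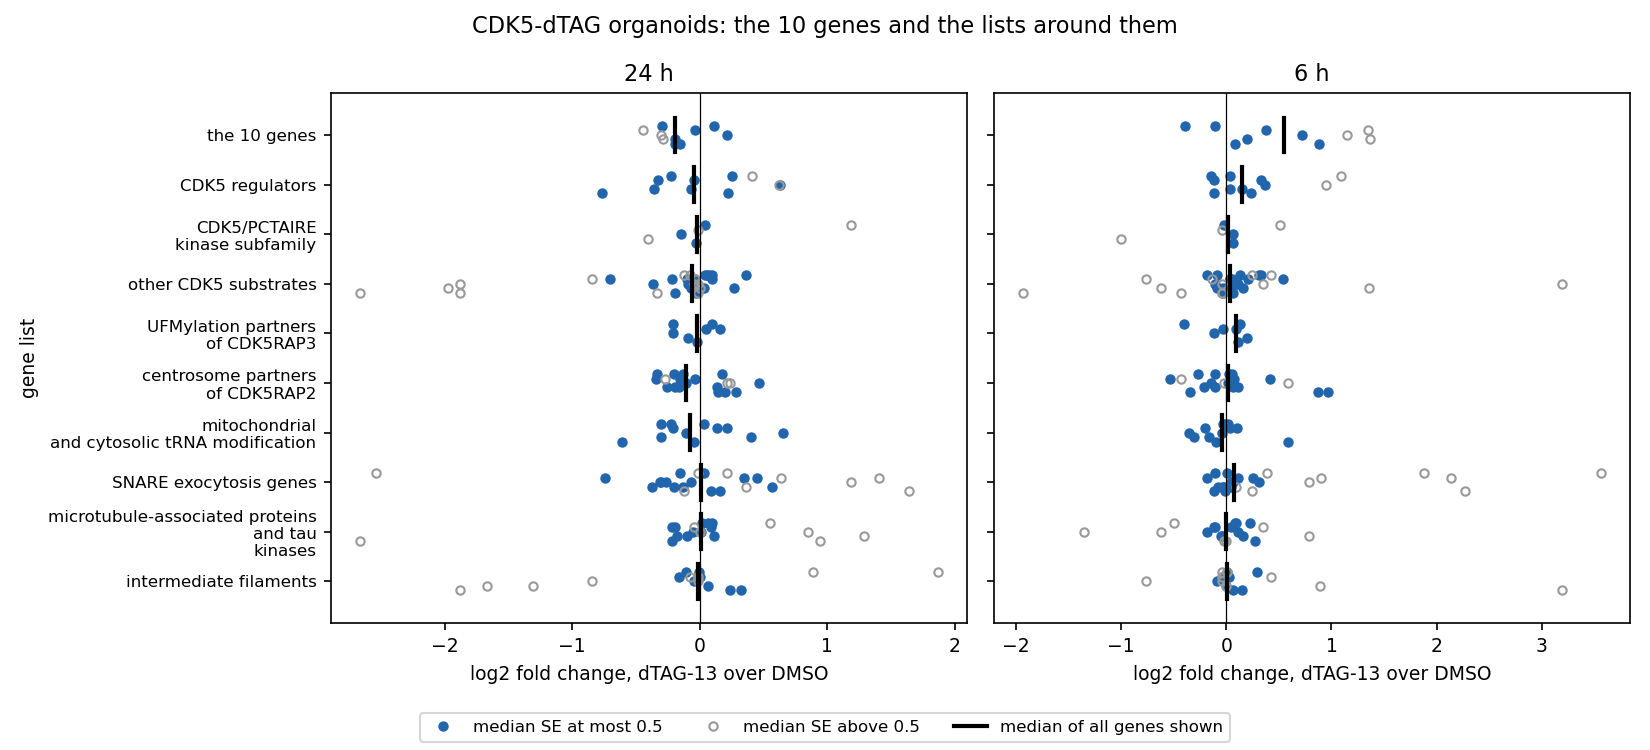
Log2 fold change of dTAG-13 over DMSO in CDK5-dTAG organoids (horizontal axis) for the 10 genes and 9 gene lists (rows), at 24 h (left) and 6 h (right); filled points are well measured genes, open points are not, and the bar is the median. The median of the 10 genes is -0.20 at 24 h and 0.55 at 6 h, and every other list median lies between -0.10 and 0.15. Over the 7 well measured genes of the 10 the median is -0.16 at 24 h and 0.19 at 6 h.

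The pattern of Cdk5 over the 10 treatment comparisons was most like those of Morc4, Gon4l, Tsc1, Mob3c and Rfc3, by Pearson correlation of log2 fold changes among 9525 other well measured genes (r of 0.912, 0.897, 0.873, 0.870 and 0.866). These are the 5 highest of 9525 values over only 10 points, given as a description. Of the other well measured genes of the 10, Cdk5rap2 had r of 0.17 with Cdk5, Vim 0.05, Cdk5rap3 -0.26, Cables2 -0.30, Cables1 -0.58 and Cdk5rap1 -0.59. Cdk5r1, Mapt and Stx1a, which are not well measured, were not ranked.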

How the data were processed

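The 60 samples were grouped by their labels into 20 groups of 3. Salmon is named in the submitters' processing notes; its version is not given in the sources used here, nor are the genome build, annotation, normalization and test. Per the file headers, the authors' deposited table gives, for every comparison, columns of log2 fold change, the linear fold change (a ratio), the raw p-value, and its FDR and Bonferroni versions. It holds no counts, so depth is unknown. The deposited FDR p-values equal a Benjamini-Hochberg adjustment over the genes with values. In each comparison 20.3% to 27.3% of genes sit at 1 identical log2 fold change, and 0 of the 10 genes at it.

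Dividing the absolute log2 fold change by the normal quantile that matches its two-sided p-value gave the standard error. Differences between 2 responses, which share no library, combined both standard errors as independent, with a two-sided normal p adjusted by Benjamini-Hochberg over all genes (Python 3.11.15, pandas 2.3.3, numpy 2.4.6, scipy 1.17.1).

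The 10 genes and all lists were chosen with earlier results of these data known. Besides the 10 genes, the text names from each pathway list among the 3 best measured members and the one with the smallest p at each time in CDK5-dTAG organoids, and from each marker list among the 2 best measured; Cdk5r2 was named outside this rule as background, and Nedd1, Tubgcp5 and Rab3a after their values were seen. Alternatives were Bonferroni p-values, t quantiles for the standard error, centring on the median of well measured genes, testing well measured genes alone and, chosen after seeing the data, medians over well measured genes.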

Additional observations from a re-analysis of the deposited data

How the results depend on the processing

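None of the 18 results across genes gained a call among the 10 genes under any of their 54 alternatives. The 13 alternatives with Bonferroni p-values could not gain one, since these are never below the FDR p-values. The lowest adjusted p was 0.914, against 0.920 as reported. Of 506 alternatives for single genes and lists, 20 were medians over well measured genes. These were judged by the size of their shift and not by sign, and all 20 moved by less than the median standard error of their genes. Some of them did change sign, such as the SNARE and exocytosis median at 24 h, from 0.01 to -0.13. Among the other alternatives 3 changed sign, all on centring, which subtracted medians of -0.02 to 0.01 from the comparisons. Cdk5r1 in WT-cKO organoids with 4-OHT at 24 h became 0.0115, and Cdk5rap1 in CDK2-dTAG organoids between DMSO times became 0.00286. Cables2 in CDK5-dTAG minus CDK2-dTAG at 24 h became 0.0109. With no call to lose, these alternatives say nothing of stability. No paired analysis was possible because the deposited table holds comparisons and no values per sample; for the same reason leaving out each replicate was not run. Without depth, the standard errors alone set the limit, and they rest on the Wald reading of the p-values.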

Other observations

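One gene outside the 10 had a called difference between the 2 degron genotypes at 24 h. Recql, a DNA helicase gene, was at -3.17 in CDK5-dTAG and 2.11 in CDK2-dTAG organoids by the authors' deposited table, a difference of -5.27 (adjusted p 0.0141, Benjamini-Hochberg over all genes). It is the single called gene in any of the 5 differences, its median standard error is 0.66, and it was chosen after its values were seen. Recql was called in neither of the 2 responses alone. The adjustment was made within each difference, and the call rests on the Wald reading of the p-values. Pecam1, an endothelial marker, was at 1.15 at 24 h and 0.01 at 6 h for CDK5-dTAG in the authors' deposited table, with an unadjusted p of 0.000894 at 24 h and no call. In WT-dTAG organoids Pecam1 was at -0.19 at 24 h and -0.43 at 6 h by the authors' deposited table. Esam, the other well measured endothelial marker, was at 0.50 at 24 h (unadjusted p 0.230) and 0.20 at 6 h for CDK5-dTAG organoids by the authors' deposited table.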
